A study of Saccharomyces cerevisiae with 262 samples.

Results

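The mitochondrial ribosomal proteins of budding yeast were taken as the probes whose annotated gene symbol was MRPL, MRPS or RSM with a number, or MRP with a number alone. The rule found 67 probes for 67 genes among the 7085 probes on the arrays, of which 5645 carried a gene symbol. By their names and the reference annotation, 38 of the genes encode proteins of the large subunit and 28 of the small subunit. The remaining gene, MRP8, was once taken for a ribosomal protein from its sequence and was kept apart. The reference annotation gives 65 of the 67 genes a name of the uniform ribosomal nomenclature, all but RSM22 and MRP8.

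The mitochondrial ribosome is the machine in the mitochondrial matrix that translates the few messages of the mitochondrial genome, most of which encode subunits of the respiratory chain and of ATP synthase. Its large subunit forms the peptide bond and releases the new chain through an exit tunnel, and its small subunit holds the messenger RNA and reads the codons. The ribosomal RNAs come from the mitochondrial genome, while nearly all of the proteins are encoded in the nucleus, made in the cytosol and imported. Some of these proteins have kin in all ribosomes (uniform names that begin with u), some only in bacteria (b) and some only in mitochondria (m). Yeast needs this ribosome to respire and can live without it on a sugar that ferments.

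The data are transcript levels of 3 kinds of haploid strain on 2-colour arrays. The parents were BY4716 (BY), a laboratory strain isogenic to S288c, and RM11-1a (RM), which derives from a wild isolate of a California vineyard, and the other strains were segregants of their cross. Each array set the RNA of 1 strain against a reference pool of BY4716 RNA, and each strain was hybridised as a dye-swap pair of 2 arrays, so that a value is the log2 ratio of a strain over the reference pool, averaged over the pair. There were 6 such pairs for BY and 12 for RM, whose pairs of equal number were averaged to 6 replicates, and the segregants filled 226 arrays, 1 pair for each strain. Neither an age, a growth condition nor a treatment is given for any group. Nothing in the labels tells whether the replicates were grown separately, so a p-value covers the spread between these samples, which may be technical. Because the reference is RNA of BY4716, a BY value measures how far a BY sample lay from its own strain's pool.

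The direction of the deposited ratio was not stated, and the sign used here is the likely one, set by LEU2, URA3 and the mating-type genes. LEU2 had a median of 0.13 in BY and −5.67 in RM, and STE2, the receptor for alpha factor, −0.24 in BY and 5.09 in RM. An array gave values for 3597 to 6581 probes, and the median was lower for BY (4756) than for RM (6488) or the segregants (6341). The BY replicates fell into 2 sets: across probes the correlation was 0.75 between replicates 1 and 2 and on average 0.87 within replicates 3 to 6, but −0.37 between the sets. Over the tested genes of both subunits, the mean level was 0.03 in BY replicates 1 and 2 and −0.09 in BY replicates 3 to 6. The counts of called mitochondrial ribosomal genes, the subunit means and the call of MRPL40 are also given with replicates 3 to 6 alone. Every array had been centred on a mean of 0, so a level is relative to the other transcripts on the array.

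Transcripts of the mitochondrial ribosomal proteins were mostly more abundant in RM: of the 42 genes tested, 38 were called higher than in BY and 2 lower, by limma on all probes with a Benjamini-Hochberg adjusted p under 0.05. Over all 2639 tested probes 34.8% were called higher in RM and 21.2% lower. The median difference of the 42 genes was 0.36 on the log2 scale, against 0.03 over all tested probes. In 31 of the 42 genes every RM replicate lay above every BY replicate, which held for 24.7% of all tested probes. With BY replicates 3 to 6 alone, 39 of the genes were called higher and 2 lower, and the median difference was 0.41. Over all tested probes 36.8% were then called higher and 31.8% lower.

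All 16 tested genes of the small subunit were called higher in RM, with differences from 0.18 to 0.59 and a median of 0.41. Of the 25 tested genes of the large subunit 21 were called higher, 2 lower and 2 were not called, with differences from −0.29 to 0.80 and a median of 0.30. Under a looser filter that asked for at least 3 values in each parent, 21 of 24 small-subunit and 28 of 33 large-subunit genes were called higher, with medians of 0.37 and 0.31. The difference between the subunits in these counts was not tested. By kin, 16 of 18 tested universal proteins, 8 of 9 of bacterial kin and 13 of 14 specific to mitochondria were called higher, with medians of 0.28, 0.40 and 0.37. A fit in which BY, RM and segregants shared 1 estimate of the spread called 12 of the 42 genes higher and none lower at the same threshold, where 11.6% of all probes were called higher. The 12 were MRPL38, MRPL36, MRPL8 and MRPL23 of the large subunit, MRPS16, MRPS9, MRP1, RSM23, MRPS18, MRP10 and MRP51 of the small subunit, and MRP8.

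**Figure D1:**
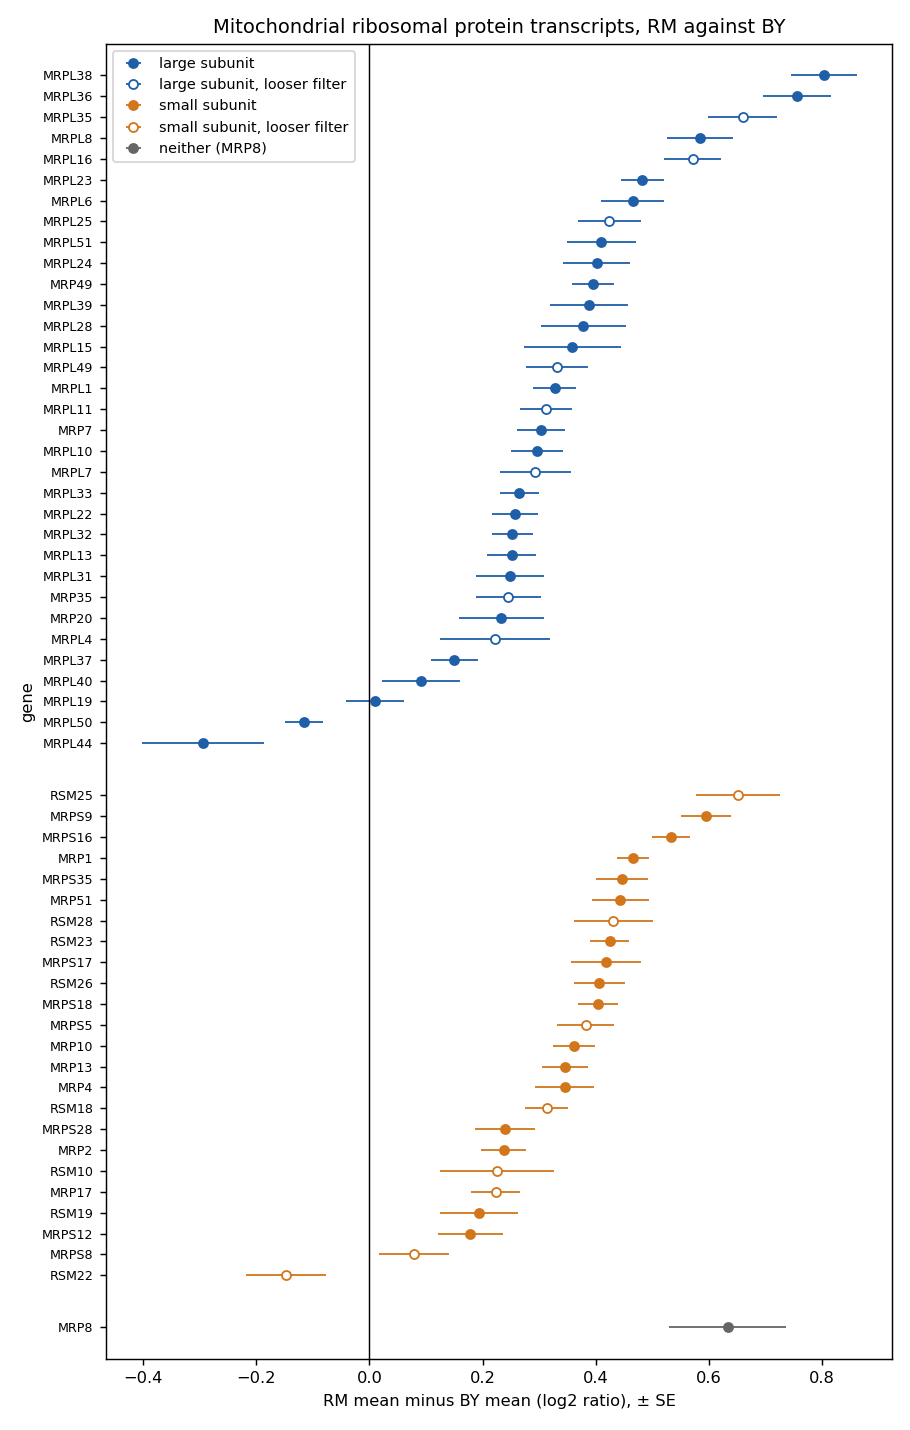
Difference between the RM and BY means (log2 ratio, horizontal axis) with its standard error for the 58 genes with at least 3 values in each parent, sorted within the large subunit (blue), the small subunit (orange) and MRP8 (grey). Filled points are the 42 genes of the main test and open points were tested under the looser filter on missing values. Most points lie to the right of 0, and MRPL44, MRPL50 and RSM22 lie to the left.

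MRPL38 (YKL170W), the mitochondrial uL14, had the largest difference of all the tested genes. Its 5 BY values were 0.11, −0.11, −0.10, −0.18 and −0.04, and its RM replicates lay between 0.66 and 0.89 with a median of 0.72. The groups did not overlap, and the difference was 0.80 (SE 0.058, limma adjusted p = 1.82e-07). MRPL36 (YBR122C), the bL31 protein at the contact of the subunits, lay between −0.35 and −0.01 in BY with a median of −0.19 and between 0.44 and 0.76 in RM with a median of 0.54. Every RM replicate again lay above every BY replicate, by 0.76 between the means (SE 0.0604, limma adjusted p = 2.13e-07).

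MRPL8 (YJL063C), a bL17 protein, came next among the tested genes of the large subunit with a difference of 0.58 (SE 0.0589), from 5 BY values of 0.02, −0.16, −0.05, −0.26 and −0.23 to RM replicates between 0.33 and 0.55. MRPL23 (YOR150W), the uL13 protein, rose from −0.07 ± 0.05 in BY to 0.41 ± 0.07 in RM (SD, n = 6 each), a difference of 0.48 (SE 0.0381). MRPL6 (YHR147C), the uL6 protein, lay at −0.14 ± 0.12 in BY and 0.33 ± 0.08 in RM (SD, n = 6 each), a difference of 0.47 (SE 0.056). In all of these genes the groups did not overlap. MRP49 (0.39, SE 0.0371), MRPL1 (0.33, SE 0.0376), the uL1 protein of the mobile stalk by which spent tRNA leaves, and MRPL33 (0.27, SE 0.0352), the uL30 protein, had smaller differences with no overlap. MRPL51 of the large subunit was higher by 0.41 (SE 0.0612), also with no overlap.

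Among the small-subunit genes MRPS9 (YBR146W), the uS9 protein whose tail reaches toward the P site, had the largest difference in the main test. It lay between −0.27 and −0.02 in BY with a median of −0.17, and between 0.41 and 0.49 in RM with a median of 0.44. The groups were apart by more than the spread within either, and the difference was 0.59 (SE 0.0445, limma adjusted p = 1.13e-07). MRPS16 (YPL013C), the bS16 protein, lay between −0.05 and 0.11 in BY with a median of 0.04 and between 0.53 and 0.61 in RM with a median of 0.55. Its RM replicates were among the tightest of the family (SD 0.029, n = 6), and the difference was 0.53 (SE 0.0336, limma adjusted p = 2.12e-08).

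MRP1 (YDR347W), which is related in sequence to superoxide dismutases, had the lowest adjusted p of the family. Its BY replicates lay between −0.09 and 0.01 with a median of −0.05, and its RM replicates between 0.38 and 0.45 with a median of 0.42. The difference was 0.47 (SE 0.0288, limma adjusted p = 1.77e-08). RSM26, the other small-subunit protein related to superoxide dismutases, was higher by 0.41 (SE 0.0448). RSM23 (0.42, SE 0.0349), the yeast counterpart of human DAP3, MRPS35 (0.45, SE 0.0458), MRP51 (0.44, SE 0.0502), MRPS18 (0.40, SE 0.0358) and MRP10 (0.36, SE 0.0371) were also higher in RM with no overlap between the replicates.

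The smallest called differences of the small subunit were those of MRPS12 and RSM19, which are neighbours in the genome. MRPS12 (YNR036C), the uS12 protein of the decoding centre, lay between −0.27 and 0.06 in BY and between −0.02 and 0.14 in RM. The groups overlapped, and the difference was 0.18 (SE 0.0574, limma adjusted p = 0.0179). Its call was lost with Cy5 arrays alone (0.14, adjusted p = 0.18) and after quantile normalization (0.26, adjusted p = 0.0611). RSM19 (YNR037C), the uS19 protein, lay between −0.10 and 0.33 in BY with a median of 0.05 and between 0.17 and 0.36 in RM with a median of 0.29. Its difference of 0.19 (SE 0.0688, limma adjusted p = 0.0287) lost its call without BY replicate 4, 5 or 6 or RM replicate 2, 3 or 5, where the adjusted p lay between 0.0529 and 0.0656. It was also lost with Cy5 arrays alone (0.14, adjusted p = 0.0713), after median centring (0.17, adjusted p = 0.0644) and after quantile normalization (0.11, adjusted p = 0.524). Within the large subunit MRP20, the uL23 protein at the mouth of the exit tunnel, was higher by 0.23 (SE 0.075, limma adjusted p = 0.0188) with overlapping replicates. Its call was lost after quantile normalization (0.19, adjusted p = 0.183), with only the first pair under each RM number (0.19, adjusted p = 0.0719) and without BY replicate 5 (adjusted p = 0.051).

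The 4 tested genes that were not called higher in RM all belong to the large subunit. MRPL44 (YMR225C) was called lower, by −0.29 (SE 0.108, limma adjusted p = 0.0353). Its BY values were 0.08, 0.13, 0.02, −0.03 and −0.04, and its RM replicates lay between −0.76 and −0.04 with a median of −0.18. RM replicate 2 lay at −0.76 and the others between −0.28 and −0.04. The call was lost without BY replicate 1, 3 or 4 or RM replicate 3 (adjusted p from 0.0587 to 0.0778). It was also lost with only the first pair under each RM number, where the difference was −0.09 (SE 0.115, limma adjusted p = 0.534), with all 12 RM pairs (−0.27, adjusted p = 0.217), with Cy5 arrays alone (−0.28, adjusted p = 0.0731) and with Cy3 arrays alone (−0.20, adjusted p = 0.169). Without RM replicate 2 the difference was −0.19 (SE 0.0524, limma adjusted p = 0.00909). With the replicate number as a block the difference was −0.19 (SE 0.0596, limma adjusted p = 0.025), since RM replicate 2 then has no BY partner.

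MRPL50 (YNR022C), the bL9 protein, was called lower in RM with a small difference of −0.12 (SE 0.0334, limma adjusted p = 0.00948). It lay between −0.004 and 0.14 in BY with a median of 0.05, and between −0.11 and −0.01 in RM with a median of −0.06, so the groups were just apart. With Cy3 arrays alone the difference was −0.07 (SE 0.0533) and was not called (limma adjusted p = 0.273), and after quantile normalization it was −0.20 (SE 0.0471, limma adjusted p = 0.00494). MRPL19 (YNL185C), the uL11 protein at the base of the stalk that binds translation factors, had BY values of −0.05, 0.02, 0.13, 0.03 and −0.03 and RM replicates between −0.14 and 0.10. The groups overlapped and the difference was 0.01 (SE 0.0507, limma adjusted p = 0.89). MRPL40 (YPL173W), the uL24 protein, had BY values of 0.01, 0.17, −0.17, −0.26 and −0.17 and RM replicates between −0.07 and 0.08. Its difference of 0.09 (SE 0.0689) was not called (limma adjusted p = 0.286), but with BY replicates 3 to 6 alone it was 0.21 (SE 0.0409, limma adjusted p = 0.000914), and without BY replicate 2 it was 0.15 (SE 0.0526, limma adjusted p = 0.0257).

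**Figure D2:**
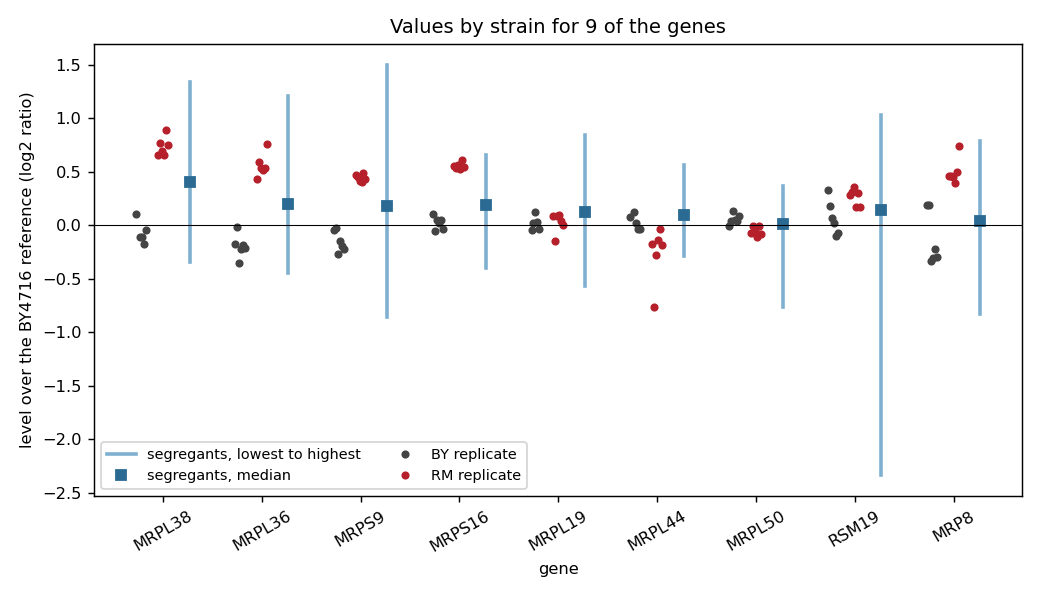
Log2 ratio over the BY4716 reference pool (vertical axis) for 9 genes, with each BY replicate (dark points), each RM replicate (red points) and the lowest value, median and highest value of the segregants (blue lines and squares). MRPL38, MRPL36, MRPS9 and MRPS16 stand apart between the parents, MRPL19 overlaps, and RSM19 reaches −2.34 in 1 segregant.

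The main test left out 25 of the 67 genes because of missing values, and in 24 of these fewer than 5 BY replicates had one. The looser filter added 16 of them, of which 12 were called higher in RM, none lower and 4 were not called. Over the 58 genes then tested, 50 were called higher and 2 lower, beside 33.3% and 20.9% of the 3986 probes tested under that filter. MRPL35 had the largest difference of the added genes, 0.66 (SE 0.0614), followed by RSM25 (0.65, SE 0.0738) and MRPL16 (0.57, SE 0.0511), the uL16 protein near the peptidyl transferase centre. RSM25 lay at −0.10, −0.11 and 0.18 in the 3 BY replicates that had a value and between 0.53 and 0.73 in RM.

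The added genes that were not called were MRPL4 (0.22, SE 0.0967), RSM10 (0.23, SE 0.101), MRPS8 (0.08, SE 0.0613) and RSM22 (−0.15, SE 0.0712), a methyltransferase-like protein that carries no uniform name. The other 9 genes had no fit. Their RM means ranged from −0.01 in MRPL20 and RSM27 to 0.62 in MRPL3, whose 6 RM replicates lay between 0.58 and 0.64 and whose 1 BY value was −0.04. RSM24 lay between 0.49 and 0.58 in RM and MRPL17 between 0.39 and 0.52. RSM27 had 5 BY values between −0.09 and 0.04 and RM replicates between −0.08 and 0.08, which overlapped, and it was left out because only 90 segregants had a value.

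MRP8 (YKL142W), which is in neither subunit, was also higher in RM. It lay at 0.19 in both BY replicates 1 and 2, between −0.33 and −0.22 in BY replicates 3 to 6, and between 0.39 and 0.74 in RM with a median of 0.47. The difference was 0.63 (SE 0.103, limma adjusted p = 0.000156), and with BY replicates 3 to 6 alone it was 0.79. The gap between the 2 sets of BY replicates was larger in MRP8 than in the mean of either subunit, where gaps of single genes can average out. Such a gap was not particular to MRP8. MRPL15 of the large subunit lay at 0.07 and 0.19 in BY replicates 1 and 2 and between −0.24 and −0.20 in replicates 3 to 6.

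The mean over the 25 tested large-subunit genes was −0.04 ± 0.07 in BY and 0.27 ± 0.02 in RM (SD, n = 6 each). The mean over the 16 tested small-subunit genes was −0.05 ± 0.06 in BY and 0.33 ± 0.03 in RM (SD, n = 6 each). The RM mean therefore lay 0.31 above BY for the large subunit and 0.38 above BY for the small subunit, and no RM replicate overlapped a BY replicate in either. With BY replicates 3 to 6 alone these differences were 0.35 and 0.41. In BY the large minus small difference was 0.01 ± 0.02 and lay between −0.01 and 0.04, and in RM it was −0.06 ± 0.01 and lay between −0.08 and −0.05 (SD, n = 6 each). The small subunit was thus the higher one in all 6 RM replicates, relative to a reference pool of BY RNA.

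The size of this offset depended on which genes and arrays were averaged. Over all genes with a value, whether or not they passed the filter, the RM difference was −0.03. With only the arrays that carried the strain's own RNA in Cy5, it was −0.03 in BY and −0.08 in RM, and with only the Cy3 arrays it was 0.05 in BY and −0.03 in RM. RM thus lay below BY on each dye, while the value of either parent moved with the dye by more than its SD over replicates. These are means over chosen genes and carry no p-value.

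**Figure D3:**
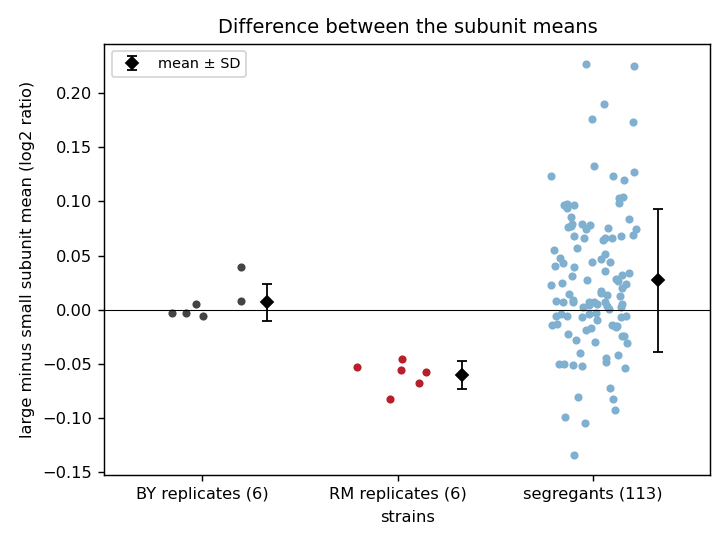
Mean of the 25 large-subunit genes minus mean of the 16 small-subunit genes (log2 ratio, vertical axis) for each BY replicate, RM replicate and segregant, with the mean and SD of each group (black). The RM replicates lie between −0.08 and −0.05 and the segregants between −0.13 and 0.23.

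In the segregants the large-subunit mean was 0.19 ± 0.26 and the small-subunit mean 0.16 ± 0.25 (SD over all segregants). The large minus small difference was 0.03 ± 0.07, with a range from −0.13 to 0.23, and was above 0 in 74 segregants (65.5%). It exceeded the highest BY replicate in 43 segregants (38.1%) and fell below the lowest RM replicate in 5 (4.43%). With both dyes averaged, the sign was therefore opposite to that in RM in most segregants, though their median difference was only 0.015. The parental values moved with the dye, and no count of segregants by dye is given here. The segregant mean lay 0.05 above the midpoint of the parents. With Cy5 arrays alone the segregant mean was 0.01 and with Cy3 arrays alone 0.04.

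The mean transcript level of the 41 tested subunit genes spread more widely over the segregants than over the replicates of either parent. It ranged from −0.44 to 0.76 with a median of 0.15, against −0.10 to 0.05 in the BY replicates and 0.25 to 0.32 in the RM replicates. It lay above the highest RM replicate in 33 segregants (29.2%), below the lowest BY replicate in 16 (14.2%), and from the lowest BY to the highest RM replicate in 64 (56.6%). A segregant was measured on 1 pair of arrays, as were each BY replicate and RM replicates 5 and 6. RM replicates 1 to 4 were means of array repeats, so the ranges do not all rest on equal numbers of arrays. The highest RM replicate was replicate 5.

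The 2 subunits followed each other closely over the segregants. The large-subunit mean and the small-subunit mean correlated with a Pearson r of 0.967 and a Spearman rho of 0.966 over all segregants, and r was 0.964 without the 2 strains farthest from the median of the large subunit. Both means come from the same arrays and share the reference pool, and the values are given as a description.

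**Figure D4:**
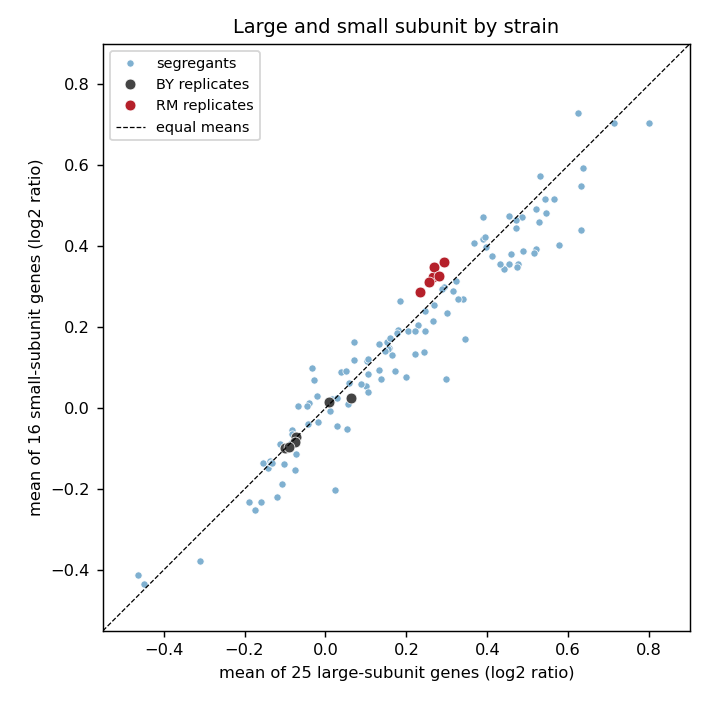
Mean of the 16 small-subunit genes against mean of the 25 large-subunit genes (both log2 ratios over the BY4716 pool) for each strain, with a dashed line where they are equal. Segregants (blue) stretch along the line from −0.46 to 0.80 on the horizontal axis, and the 6 RM replicates (red) lie above the line.

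The segregant mean of a gene was set against the midpoint of the 2 parents to ask whether the cross averaged them. Only MRPL44 of the 42 tested genes was called, with a segregant mean of 0.10 against parental means of 0.03 in BY and −0.26 in RM. It lay 0.21 above the midpoint (SE 0.063, limma adjusted p = 0.0455), and 2.2% of all tested probes were called. The call was lost without any 1 of BY replicates 1, 2, 4, 5 and 6 and of RM replicates 1, 2, 3 and 6. In this fit BY, RM and segregants shared 1 estimate of the spread. The variance among segregants over that within the parents had a median of 11.9 in the 41 tested subunit genes, and was 0.96 in MRPL44. The shared spread widens the error of the parental means, so a gene that was not called is not shown to lie at the midpoint. The median of the 42 genes lay 0.05 above the midpoint, against −0.004 over all tested probes. The large-subunit mean lay 0.07 and the small-subunit mean 0.02 above the midpoint.

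The segregants were more variable than the parents in 37 of the 42 genes by a limma test of how far each strain lay from its group mean, where 41.7% of all tested probes were called. With BY replicates 3 to 6 alone 38 genes and 62.3% of all tested probes were called. An F ratio of the variances called 39 of the 42 genes and 77.1% of all probes. The segregant SD of the genes lay between 0.20 in MRPL44 and 0.50 in RSM19 with a median of 0.31, against a median of 0.26 over all tested probes. The pooled SD within the parents had a median of 0.09 in these genes and 0.11 over all tested probes.

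Broad-sense heritability, 1 minus the pooled variance within the parents over the variance among segregants, had a median of 0.91 in the 42 genes and 0.80 over all tested probes. This estimate may be too high, because the parental replicates may be technical and each segregant was measured on only 1 pair of arrays. It was highest in MRPL37 (0.975), MRPL33 (0.972), MRP2 (0.963), RSM26 (0.960) and MRPS16 (0.958). In MRPL37 (YBR268W) the BY replicates lay between −0.08 and −0.03 and the RM replicates between −0.02 and 0.24, while segregants ran from −1.11 to 1.10 with a median of 0.17. Of the segregants 43 lay above and 25 below all parental replicates, though the parents differed by 0.15 (SE 0.0413), a call that was lost with Cy3 arrays alone (0.09, adjusted p = 0.234).

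MRP2 (YPR166C), the uS14 protein, likewise ran from −0.72 to 0.65 over 110 segregants, and 24 of them lay above and 39 below all parental replicates. Its parental difference was 0.24 (SE 0.0395). Over the tested subunit genes, between 4 and 57 segregants lay above all parental replicates, with a median of 28. Between 0 and 39 lay below them, with a median of 15. Such counts are not given here over all tested probes, so they are not shown to be particular to these genes. They also set segregants measured on 1 pair against RM replicates of which numbers 1 to 4 were averaged over array repeats. MRPS12 had the most above, 57, although its parents differed by 0.18.

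Heritability was lowest in MRPL44 (−0.04), MRP20 (0.514), MRPL28 (0.698), MRPL19 (0.742) and MRPL51 (0.806). In MRPL44 the SD among segregants was 0.20, as was the pooled SD within the parents, which was unequal between them (0.07 in BY and 0.28 in RM). MRP8 had a heritability of 0.584 and was not called more variable (limma adjusted p = 0.198). Neither were MRP20 (limma adjusted p = 0.331), MRPL28 (0.241), MRPL44 (0.604) and MRPL19 (0.0597). MRPL28 ranged from −0.20 to 2.05 over the segregants with a median of 0.33, and 38 of 110 lay above all parental replicates and 1 below.

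Transcripts of the family varied together across the segregants. Over the 820 pairs of the 41 tested subunit genes the median r was 0.653, and 82.3% of pairs exceeded 0.5, against a median of 0.019 and 4.43% over all pairs of tested probes. The median was 0.653 within the large subunit, 0.645 within the small subunit and 0.654 between them, and the difference between these medians was not tested. When 1 gene of a pair was read from the Cy5 arrays and the other from the Cy3 arrays, which share no hybridisation, the medians were 0.505, 0.497 and 0.513. No such median across dyes is given here over all pairs of tested probes. All values share the reference pool.

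Against the mean of the other tested genes, 25 of the 41 subunit genes had an r over 0.8. The highest were MRPL6 (0.933), MRPL51 (0.928), MRPL8 (0.928), MRPL31 (0.921) and RSM26 (0.915). MRPL6 ran from −0.64 to 0.96 over the segregants with a median of 0.23, and MRPL31 (YKL138C) from −1.28 to 1.16 with a median of 0.20. MRPL31 differed between the parents by 0.25 (SE 0.0598, limma adjusted p = 0.00359), with overlapping replicates, and was not called after quantile normalization (adjusted p = 0.0679). The 25 subunit genes left out of the main test had an r from 0.635 in RSM22 to 0.953 in MRPL49, the bL21 protein, and 17 of them exceeded 0.8.

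The lowest values were those of RSM19 (0.321), MRP20 (0.577), MRPL19 (0.581), MRPL37 (0.616) and MRPS12 (0.633). RSM19 had a Spearman rho of 0.413 and ran from −2.34 to 1.03 over the segregants with a median of 0.14. MRPL38 and MRPL36, with the largest parental differences, had 0.860 and 0.706. MRPL50 and MRPL44, called lower in RM, nevertheless had 0.641 and 0.711, and MRPL19 and MRPL40 (0.645), with no called parental difference, also followed the others over the segregants.

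MRP8 stood outside. Its r with the mean of the subunit genes was 0.135 (rho 0.104), and its pairwise r with the 41 genes had a median of 0.093 and reached 0.467 at most. The genes whose values were most like those of MRP8 were led by STF1, a regulator of ATP synthase, GAD1, a glutamate decarboxylase, PNC1, a nicotinamidase, and GOR1, a glyoxylate reductase. Their r lay between 0.784 and 0.827 for the 10 most alike, of which none was a mitochondrial ribosomal protein.

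**Figure D5:**
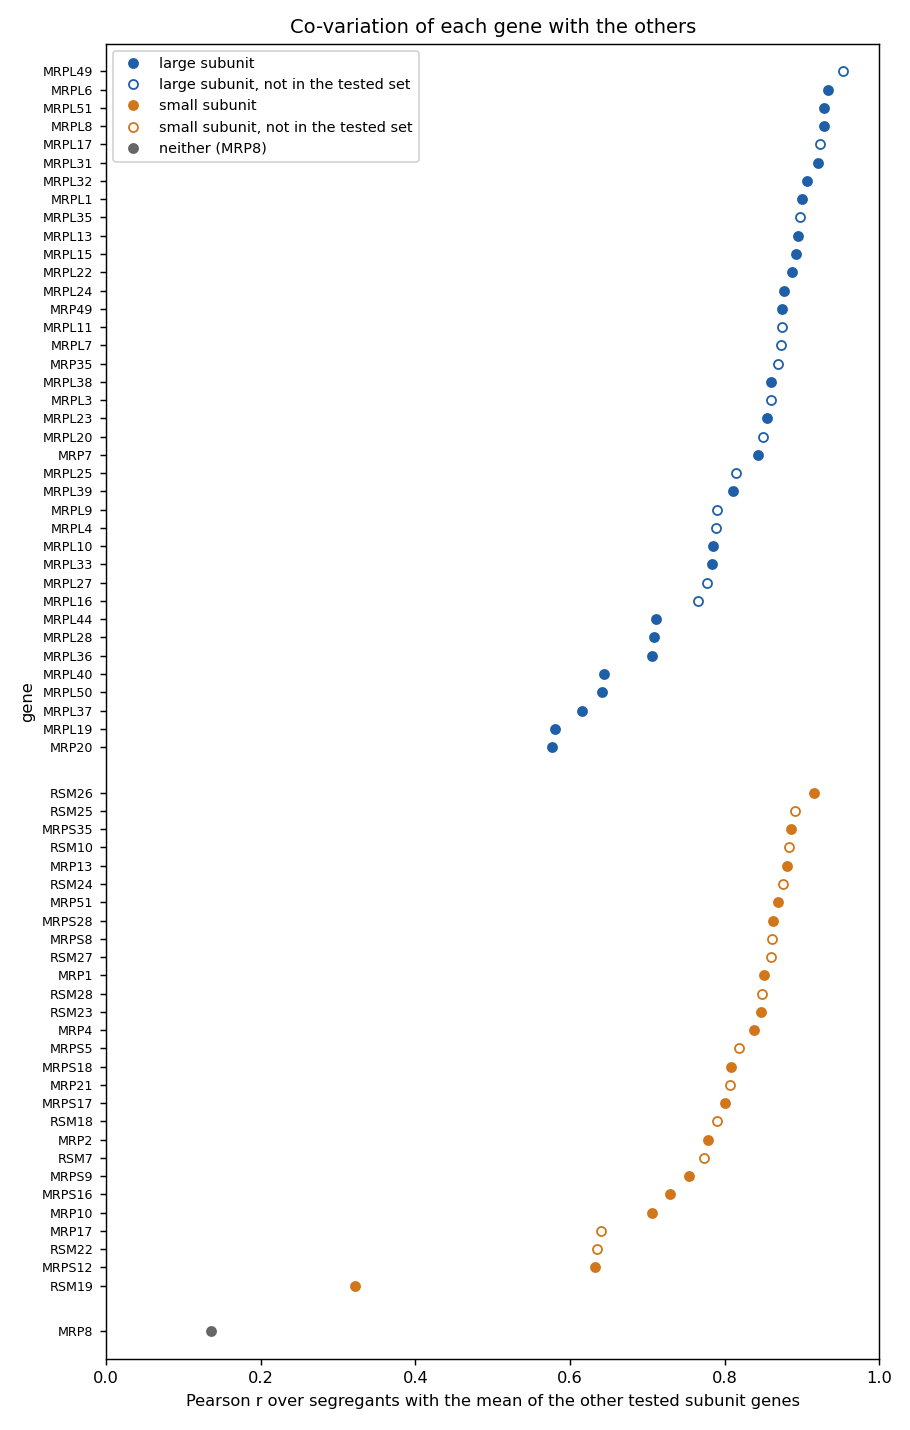
Pearson r over the segregants (horizontal axis) between each gene and the mean of the other tested subunit genes, for the large subunit (blue), the small subunit (orange) and MRP8 (grey). Filled points are genes of the main test, open points the others. Most points lie above 0.7, and RSM19 at 0.321 and MRP8 at 0.135 are the lowest.

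Outside the 67 genes, 4403 named probes were compared with the mean of the 41 subunit genes over at least 100 segregants, and 30 had an r over 0.8. The 10 most alike were MAM33 (0.922), an acidic protein of the matrix, PET123 (0.917), RML2 (0.913), CBP3 (0.904), a factor for translation and assembly of cytochrome b, MSC6 (0.903), CYT2 (0.888), which attaches haem to cytochrome c1, SWS2 (0.887), NAM9 (0.880), COX23 (0.872) and YNL184C (0.854). PET123, RML2, SWS2 and NAM9 are themselves mitochondrial ribosomal proteins whose symbols do not follow the rule. At the other end lay TOM1 (−0.659), a ubiquitin ligase, BLM10 (−0.628), a proteasome activator, and NUP159 (−0.602), a nucleoporin, the 3 probes with an r under −0.6. TOM1 and BLM10 were lower in RM than in BY, by −0.31 (SE 0.0455) and −0.30 (SE 0.0414).

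Of 13 listed mitochondrial ribosomal proteins with other names 8 were tested, of which 6 were called higher in RM, none lower and 2 were not called, with a median difference of 0.18. NAM9 (uS4, 0.57, SE 0.0412), PET123 (0.40, SE 0.0582) and SWS2 (0.36, SE 0.0319) led them, and IMG1 (0.11, SE 0.0785) and YML6 (0.00, SE 0.0428) were not called. The mean of these 8 correlated with the mean of the 41 genes over the segregants with an r of 0.965 (rho 0.968, and r 0.963 without the 2 farthest strains). EHD3, listed for its reported presence in the small subunit and otherwise an enzyme of valine breakdown, had an r of 0.088.

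Few genes of the other steps of mitochondrial translation passed the filter. Of 13 genes listed as translation factors 2 were tested, and both were called higher in RM. They were CBP6 (0.46, SE 0.0373) and TUF1, the elongation factor Tu (0.39, SE 0.0967). NAM2, the leucyl-tRNA synthetase and the 1 synthetase tested of 13 listed, was higher by 0.27 (SE 0.0387). The translational activators CBS2 (0.19, SE 0.0279) and MSS51 (0.29, SE 0.079) were higher too. Their r with the mean of the 41 genes ran from 0.634 in CBS2 to 0.817 in CBP6.

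Nuclear genes of the respiratory chain and ATP synthase were also more abundant in RM. All 26 tested were called higher by a median of 1.29, against 0.36 for the mitochondrial ribosomal genes, and COX5A (2.04, SE 0.115), COX6 (1.27, SE 0.0829) and ATP20 (1.03, SE 0.0661) had the lowest adjusted p. Their mean was −0.34 ± 0.31 in BY and 1.04 ± 0.09 in RM (SD, n = 6 each). Over the segregants it followed the mitochondrial ribosomal mean with an r of 0.493 (rho 0.480, and r 0.507 without the 2 farthest strains).

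The cytosolic ribosomal proteins, which build the ribosome outside the organelle, behaved differently in the counts. Of 122 tested genes 2 were called higher in RM, 7 lower and the others not, with a median difference of −0.06. RPP2A was higher by 0.36 (SE 0.0869), and RPS13 (−0.32, SE 0.0844) and RPL16A (−0.33, SE 0.0922) were lower. Their single-gene r with the mitochondrial ribosomal mean lay between −0.007 and 0.281. Over the segregants the mean of these genes had an r of 0.201 with the mitochondrial ribosomal mean (rho 0.112, and r 0.166 without the 2 farthest strains).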

How the data were processed

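The deposited values are log2 ratios of the reference pool over a strain's own RNA, 1 column an array, and as deposited every array has a mean of 0. The base and sign are not stated in the file: base 2 was taken because values reach 11.98 in absolute size, and the sign was turned. How the authors scanned, corrected and filtered the spots is not given in the sources used here. Probes were named from the platform annotation, and MRP35 was put in the large subunit from its synonym in the reference gene table. The family, the other gene lists and the genes named in full were chosen with earlier results of these data known. Named in full were the up to 8 genes a subunit with the lowest adjusted p, every tested gene not called higher in RM, the 5 highest and 5 lowest heritabilities and correlations, MRP8, genes called at the midpoint, up to 3 genes of each other list and the 10 most similar genes.

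A pair's value was the mean of its arrays and missing where either lacked the probe. A probe was tested where each parent lacked at most 1 replicate and at least 80% of segregants had it measured, and no value was imputed. Tests were lmFit and eBayes of limma 3.58.1 (R 4.3.3) over all tested probes, two-sided, checked on simulated data; variability used 1 array repeat for each RM number, the first. Replicate numbers shared by BY and RM deviated together (r from 0.129 to 0.511 over the 6 numbers, although 3 BY replicates correlated best with another RM number), so a fit with the number as a block was run beside. Scripts ran in Python 3.11.15 (pandas 2.3.3, numpy 2.4.6, scipy 1.17.1, matplotlib 3.10.9). The alternatives were other filters, dyes, scalings, repeats and replicates, and the number of arrays limits the precision. Promoters and proteins were not analysed here.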

Additional observations from a re-analysis of the deposited data

Results flagged for a closer look

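In 3 of 66 groups of parental replicates examined, 1 replicate lay apart from the other values of its group by a Dixon test at the 95% level, and chance alone flags about 1 group in 20, or 3.3 of them. MRP8 was 0.7401 in RM replicate 6, where the other RM replicates lay between 0.3933 and 0.5033. MRPL44 was −0.7648 in RM replicate 2, against −0.2778 to −0.0368 in the others. The large minus small subunit mean was 0.0396 in BY replicate 2, against −0.00609 to 0.00794 in the others.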

How the results depend on the processing

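The count of genes called higher in RM stayed within 1.5 times of 38 under the alternatives run (36 to 39 with 1 replicate left out), except for 12 where all 3 groups shared 1 spread, a fit in which the segregant spread enters by construction. That fit called 18.0% of all tested probes. The count was 50 of 58 genes under the looser filter and 54 with a value from 1 array where the other was missing. With Cy5 arrays it was 41 and with Cy3 arrays 44. The filter was applied anew in these settings, so their counts do not all rest on the same 42 genes. The count of genes called lower was 1 with Cy5 arrays, with the first RM repeat and with all 12 RM pairs, 0 with Cy3 arrays and with all 3 groups, and 1 to 2 with 1 replicate left out. Called in either direction were 50.81% of all tested probes with Cy5 arrays and 49.06% with Cy3 arrays. The share was 51.78% with the first RM repeat and 56.73% with all 12 RM pairs. Leaving out 1 replicate gave 52.2% to 58.5% of all probes. With the replicate block 38 genes were called higher and 2 lower, with 59.3% of all probes, and the block changed no call of the 30 genes named in full. At the midpoint the count of called genes was 0 under the looser filter, with either array alone, with Cy5 or Cy3 arrays, with the first RM repeat, with all 12 RM pairs and with BY replicates 3 to 6, and 0 to 1 with 1 replicate left out. Of all tested probes 2.2% were called there, and 1.17% with Cy5 arrays, 4.06% after quantile normalization, 1.45% with the first RM repeat, 3.90% with all 12 RM pairs, 1.21% with BY replicates 3 to 6, and 1.40% to 1.97% with 1 replicate left out. More variable by the F ratio were 77.1% of probes, against 41.7% by limma. The large minus small difference in BY was −0.0254 with Cy5 and 0.0451 with Cy3 arrays and 0.000216 to 0.00936 with 1 replicate left out, and in RM −0.0278 over all genes with a value, −0.0788 with Cy5, −0.0345 with Cy3 and −0.0632 to −0.0558 with 1 left out. The median r within the large subunit was 0.505 across dyes. MRPL19, which was not called, turned to −0.000945 with either array, −0.0323 with Cy5, −0.0181 after median centring, −0.0357 after quantile normalization and −0.0113 with BY replicates 3 to 6, and lay between −0.00581 and 0.0444 with 1 replicate left out. Of the 30 genes named in full, quantile normalization ended the calls of MRP20, MRPL28, MRPL31, MRPS12 and RSM19, median centring that of RSM19, Cy5 arrays those of MRPL44, MRPS12 and RSM19, Cy3 arrays those of MRPL37, MRPL44 and MRPL50, the first RM repeat those of MRP20 and MRPL44, and all 12 RM pairs that of MRPL44. Over all tested genes of the family 32 were called higher after quantile normalization. That setting called 41.76% of all tested probes in either direction, where the main fit called 34.8% higher and 21.2% lower. Fewer calls were thus made over all probes too. The cause of these moves was not tested. Depth in the sense of signal over background was not analysed here.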

Other observations

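Probe numbers sat beside the co-variation of 1 gene. Of the 10 probes whose segregant values were most like those of RSM19, 9 lay within 150 probe numbers of it, among them COX17, QCR10, HUB1, HAC1, MRPL36 and MRPL23, with r from 0.476 to 0.617. Over 4775 probes the median was 1 of 10, and 9 probes (0.189%) reached 9 of 10; among the 65 mitochondrial ribosomal protein probes compared the median was 2. Pairs of family genes at most 100 probe numbers apart had a median r of 0.712 and pairs farther apart 0.648, and over all tested probes the medians were 0.0895 and 0.0173. The layout of the probes on the array is not given in the sources used here, and its part in these values was not tested.

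A few segregant values stood far from the rest of their gene. MRP17 reached 2.82 in 1 segregant, where the next highest was 0.613, and the value came from 0.167 on the Cy5 array and 5.47 on the Cy3 array. MRPL28 reached 2.05 from 3.12 and 0.982, with 1.17 as the next highest. RSM19 reached −2.34 from 2 arrays that lay close together, at −2.22 and −2.46, with −1.86 as the next lowest.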
